A study of Mus musculus with 6 samples.

Results

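The genes described here are 41 autophagy and lysosome genes, taken from a fixed list of symbols: the autophagy machinery from initiation to the LC3 family, lysosomal membrane proteins, lysosomal hydrolases, subunits of the proton pump and the transcription factors Tfeb and Tfe3. A probe set with the listed symbol was found for 39 of the 41, among 19505 genes tested in the series. Optn and Ctsd had no probe set of that symbol in the platform table and were not analysed here. Each of the 39 had 1 probe set.

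RNA from small intestinal crypts was hybridised to 1 Affymetrix array per sample, with 3 CSN8fl/fl and 3 CSN8ΔIEC samples from C57bl/6 mice. Both genotypes carry the floxed Cops8 gene, which encodes a subunit of the COP9 signalosome, a regulator of cullin-RING ubiquitin ligases; ΔIEC was read as its deletion in the epithelium, and neither the promoter that drives the deletion nor any pooling of animals was named in the sources available. In each genotype replicates 1 and 2 were labelled female and 16 weeks old, and replicate 3 male and 10 weeks old. The study asked whether loss of CSN8 alters antimicrobial peptide production, and the autophagy and lysosome genes were measured on the same arrays. The labels do not state that each array holds a different mouse, so p-values cover the spread between these samples, which may in part be technical.

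Autophagy encloses cytoplasm in a double membrane and delivers it to the lysosome. The ULK kinase complex starts the process, a lipid kinase complex built on Pik3c3 and Becn1 marks the membrane, and an E1-E2-E3-like cascade attaches LC3 and GABARAP proteins to it. Lysosomes, acidified by the V-ATPase, then degrade the contents with cathepsins and glycosidases. In the crypt, the machinery is best known from Paneth cells, whose granule secretion depends on Atg16l1.

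Many lysosomal genes share an E-box, CACGTG, which within the longer letters TCACGTGA resembles the CLEAR element bound by Tfeb and Tfe3. The promoters in the RefSeq table, GRCm38.p6, run from 250 bases before to 50 bases after a gene's start, and 33 of the 41 genes matched it with 39 promoters. CACGTG, a palindrome that reads alike on both strands, stood in 12 of these 39 promoters (30.8%), against 7.15% of the 32851 promoters in the table. TCACGTGA, also a palindrome and containing the shorter one, stood in 7 of the 39 (17.9%), against 0.974% of all promoters. A match is a description of the letters and no evidence of binding.

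The following stretches show the E-box in measured genes of the proton pump, the membrane, the hydrolases and the LC3 cascade, so that the genotype values given further on can be read beside them. They are written 5′ to 3′ on the gene's strand, with CACGTG in capitals, and all but that of Atp6v0d1, whose motif begins 3 bases before the start, end at or before the start.
Atp6v1a, minus strand, chr16:44139360-44139415: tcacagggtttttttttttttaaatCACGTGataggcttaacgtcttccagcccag
Atp6v0d1, minus strand, chr8:105566050-105566079: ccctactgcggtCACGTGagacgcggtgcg
Mcoln1, plus strand, chr8:3500423-3500504: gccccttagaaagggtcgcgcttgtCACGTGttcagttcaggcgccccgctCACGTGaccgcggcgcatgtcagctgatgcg
Lamp1, plus strand, chr8:13159075-13159160: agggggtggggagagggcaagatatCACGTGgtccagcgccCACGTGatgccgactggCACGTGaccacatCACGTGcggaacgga
Ctsa, plus strand, chr2:164833736-164833772: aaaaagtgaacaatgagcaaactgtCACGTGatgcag
Gla, minus strand, chrX:134601169-134601255: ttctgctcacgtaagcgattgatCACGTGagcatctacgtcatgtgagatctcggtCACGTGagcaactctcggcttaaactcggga
Atg3, plus strand, chr16:45158710-45158788: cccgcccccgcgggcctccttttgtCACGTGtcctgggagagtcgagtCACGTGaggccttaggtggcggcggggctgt

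In Lamp1 there were 4 copies within the 61 bases before the start, none of them in the longer form. Gla had 2 copies of the longer form, and the promoters of Mcoln1 and Atg3 each had 1 long and 1 short copy. The promoter of Ctsa had a further long copy, which began 5 bases after the start. The 11 measured genes with CACGTG also include Ctsl, Atg5, Atg7 and Atg14, whose stretches are not shown. Each gene not shown had 1 copy, none in the longer form, and that of Ctsl began 236 bases before the start.

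Values are log2 probe set signals after RMA; differences are CSN8ΔIEC minus CSN8fl/fl, group values are means ± SD (n = 3) and differences are given ± SE. Genotypes were compared over all 19505 genes with limma, and a gene was called at a Benjamini-Hochberg adjusted p under 0.05. Array medians lay between 6.70 and 6.76, and precision is set by there being 3 arrays a group. Correlations between pairs of arrays ran from 0.976 to 0.993, and the highest of CSN8fl/fl replicate 3 with another array was 0.986. Cops8 was at 8.26, 8.22 and 8.10 in CSN8fl/fl and at 7.68, 7.61 and 7.77 in CSN8ΔIEC (adjusted p = 0.0865), and whether its probes lie in the deleted part was not given. The Y-linked genes Eif2s3y, Kdm5d and Uty went against the sex labels: Uty was at 3.30 and 3.21 in the libraries labelled male and at 8.47 to 8.87 in those labelled female. Sex is therefore given below as labelled only. Markers of the epithelium were level between genotypes, with a summed log2 signal of 15.42 to 15.52 in CSN8fl/fl and 15.42 to 15.55 in CSN8ΔIEC over 8 genes.

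None of the autophagy and lysosome genes passed the test between genotypes, and their differences were small. Of the 39, 0 were higher and 0 were lower at the adjusted threshold, where 0.374% of all genes were called higher and 0.702% lower, or 1.08% in all. A share of 0 among 39 genes is close to that background. Adjusted p-values ran from 0.131 for Atg4a to 0.922 for Atg7. At an unadjusted p under 0.05 there were 5 lower genes, Atg4a, Atg9a, Wipi1, Map1lc3b and Atp6v1a, and 0 higher, against 8.01% and 6.95% of all genes.

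The size of the differences was limited as well. They ran from −0.54 for Ctsl to 0.20 for Atp6v1h, with a median SE of 0.13. For 38 of the 39 genes the 95% interval of the difference lay within a 2-fold change in either direction, and Ctsl was the exception. The interval lay within 1.5-fold for 31 of the 39, or 79.5%, as it did for 68.0% of all genes. A 2-fold change in the signal of any gene but Ctsl was thus outside its interval. The interval of Cops8, the targeted gene, ran from −0.76 to −0.24 and also lay within 2-fold. These intervals are of array signal from mixed crypt cells, not of RNA amount per cell.

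Most of the small differences pointed down. Of the 39 genes, 31 had a difference below 0 (79.5%), as had 51.8% of all genes. The median was −0.10, against −0.011 over all genes. Of 177 further genes of the same processes, described below, 102 lay below 0 (57.6%), with a median of −0.036. For each array, the log2 signals were set against each gene's own mean over the 6 arrays. The median of the 39 deviations was −0.020, 0.13 and 0.10 in the CSN8fl/fl arrays and −0.089, 0.000040 and −0.076 in the CSN8ΔIEC arrays, in replicate order. The 2 genotypes overlapped on this measure, since CSN8fl/fl replicate 1 lay below CSN8ΔIEC replicate 2. In 9 genes every CSN8ΔIEC value lay below every CSN8fl/fl value and in 1 gene above, where 11.7% of all genes separated downward and 10.7% upward. The 9 became 20 without CSN8fl/fl replicate 1 and 16 without CSN8ΔIEC replicate 2. The 1 became 3 without CSN8fl/fl replicate 2 or CSN8ΔIEC replicate 2, and 2 without CSN8ΔIEC replicate 3. Fewer arrays make separation more frequent for any gene, and the share over all genes was not counted at these settings. These larger counts therefore cannot be read as a result about the listed genes.

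**Figure D1:**
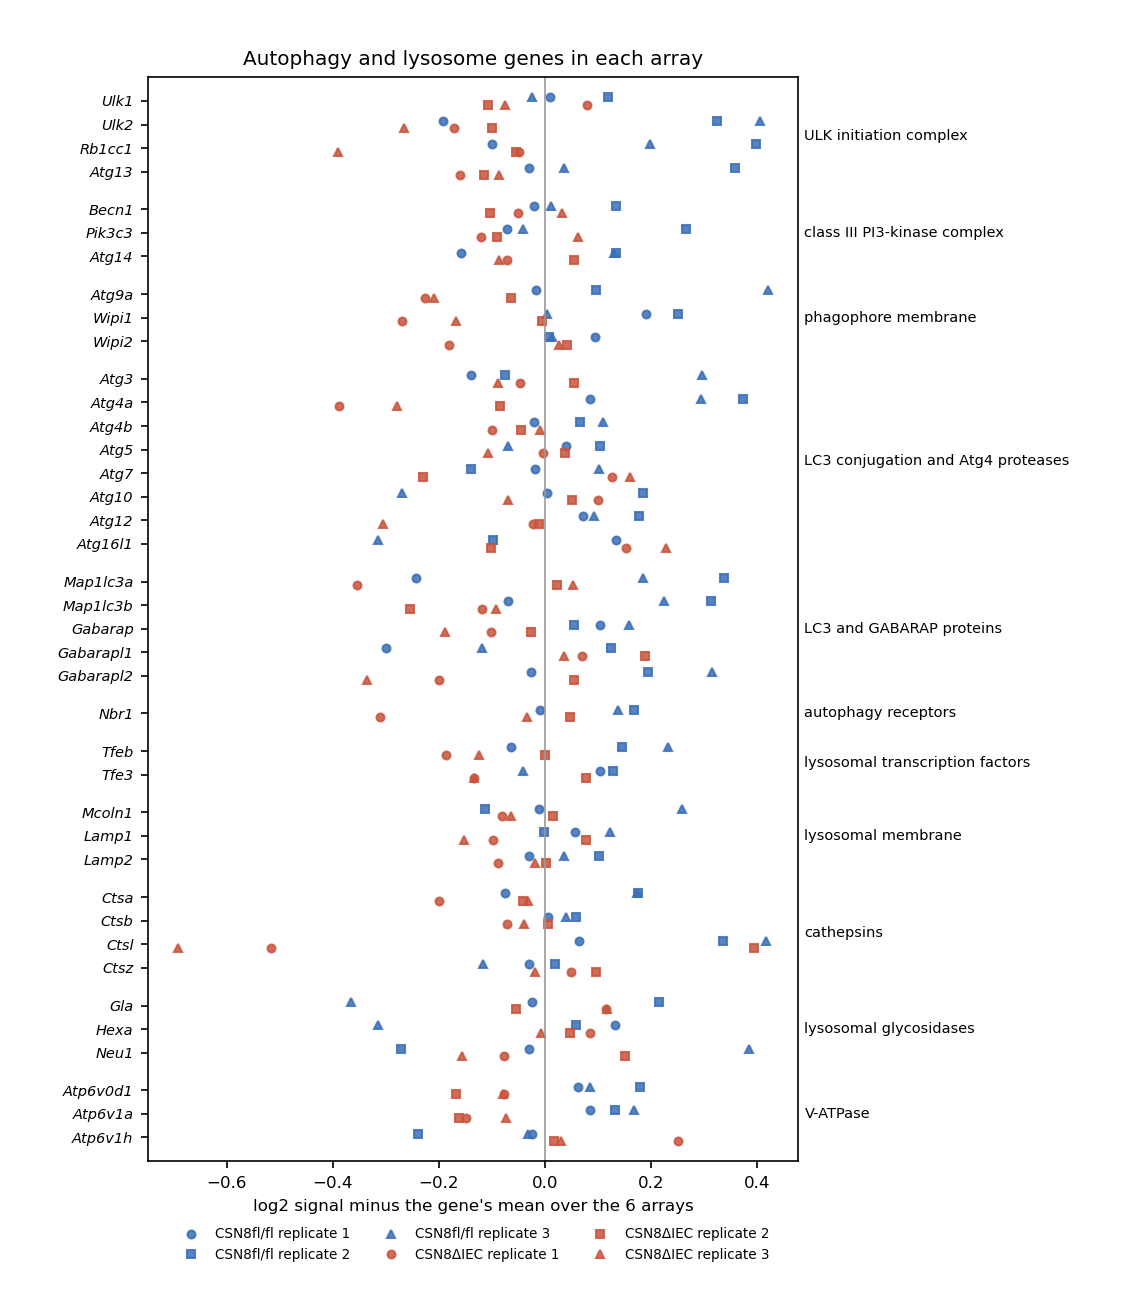
Signal of each of the 39 measured genes in each of the 6 arrays, as log2 signal minus the gene's mean over the arrays; blue marks CSN8fl/fl, red CSN8ΔIEC and the marker shape the replicate. In 9 genes all red points lie left of all blue ones and in Atp6v1h right of them, and the 2 low red points of Ctsl lie farthest from 0.

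The ULK complex, which starts autophagosome formation, had a median difference of −0.29 over 4 genes. Ulk2, a kinase of the complex, had 7.38, 7.90 and 7.98 in CSN8fl/fl and 7.40, 7.47 and 7.31 in CSN8ΔIEC, a difference of −0.36 ± 0.17 (adjusted p = 0.362). CSN8fl/fl replicate 1 sat among the CSN8ΔIEC values, and the other CSN8fl/fl arrays above them. Rb1cc1, the scaffold FIP200, had 7.82, 8.32 and 8.12 against 7.87, 7.87 and 7.53, with a difference of −0.33 ± 0.16 (adjusted p = 0.386). Atg13, the adaptor of the complex, separated the groups with 7.29, 7.68 and 7.36 against 7.16, 7.21 and 7.24, but its difference of −0.24 ± 0.13 did not pass (adjusted p = 0.441). Ulk1, the other kinase, had 6.36, 6.47 and 6.33 against 6.43, 6.25 and 6.28, with overlapping groups and a difference of −0.070 ± 0.12.

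The lipid kinase complex showed small differences throughout. Pik3c3, the kinase that makes phosphatidylinositol 3-phosphate, had 7.74, 8.08 and 7.77 in CSN8fl/fl and 7.69, 7.72 and 7.87 in CSN8ΔIEC, a difference of −0.10 ± 0.13. Its partner Becn1 had 9.59, 9.74 and 9.62 against 9.56, 9.51 and 9.64, a difference of −0.082 ± 0.11. Atg14, which directs the complex to autophagy, had 6.78, 7.07 and 7.07 against 6.87, 6.99 and 6.85, a difference of −0.070 ± 0.13. The genotypes overlapped in all 3 genes, and each interval lay within 1.5-fold.

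Of the proteins that act on the growing membrane, Atg9a and Wipi1 separated the groups and Wipi2 did not. Atg9a, a scramblase carried in vesicles to the growing membrane, had 9.89, 10.01 and 10.33 in CSN8fl/fl and 9.69, 9.85 and 9.70 in CSN8ΔIEC. Its difference was −0.33 ± 0.14 (adjusted p = 0.316), and −0.21 without CSN8fl/fl replicate 3, whose value was the highest. Wipi1, a phosphoinositide-binding protein, had 7.67, 7.73 and 7.48 against 7.21, 7.47 and 7.31, a difference of −0.30 ± 0.13 (adjusted p = 0.324). The lowest CSN8fl/fl value and the highest CSN8ΔIEC value of Wipi1 nearly touched. Wipi2, which recruits Atg16l1, differed by −0.076 ± 0.12.

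The conjugation genes held the smallest p of the list. Atg4a, one of the proteases that trim LC3 and GABARAP proteins, was at 7.38, 7.67 and 7.59 in CSN8fl/fl and at 6.91, 7.21 and 7.01 in CSN8ΔIEC. All CSN8ΔIEC values lay below all CSN8fl/fl values, and the means were 7.54 ± 0.15 and 7.04 ± 0.15. The difference of −0.50 ± 0.13, 1.41-fold, did not pass over all genes (adjusted p = 0.131), and the adjusted p was 0.0714 to 0.419 over all alternatives. Its relative Atg4b differed by −0.10 ± 0.11 with overlapping groups.

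The conjugating enzymes themselves had small differences with overlapping groups. The E1-like Atg7 differed by 0.038 ± 0.14, the E2-like Atg3 and Atg10 by −0.054 ± 0.14 and 0.054 ± 0.14, and Atg5, which joins Atg12, by −0.048 ± 0.11. Atg12, the ubiquitin-like partner of Atg5, was at 9.59, 9.69 and 9.61 in CSN8fl/fl and 9.50, 9.51 and 9.21 in CSN8ΔIEC. The groups did not overlap, but CSN8ΔIEC replicate 3 alone was clearly low, and the difference of −0.23 ± 0.13 did not pass (adjusted p = 0.441). Atg16l1, which places the conjugation site and is required for Paneth cell granules, had 8.17, 7.94 and 7.73 against 8.19, 7.94 and 8.27. Replicates 1 and 2 of Atg16l1 were alike in both genotypes, and the difference of 0.19 ± 0.15 (adjusted p = 0.602) rested on replicate 3.

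In the LC3 and GABARAP family 4 of 5 genes had a difference below 0. Map1lc3b, the widely used autophagosome marker LC3B, had 9.73, 10.11 and 10.02 in CSN8fl/fl and 9.68, 9.54 and 9.70 in CSN8ΔIEC, with a difference of −0.31 ± 0.14 (adjusted p = 0.326). Its lowest CSN8fl/fl value exceeded the highest CSN8ΔIEC value by little. Gabarap had 12.11, 12.06 and 12.16 against 11.90, 11.98 and 11.81, a difference of −0.21 ± 0.11 (adjusted p = 0.418), and its groups did not overlap. Gabarapl2, or GATE-16, had 9.01, 9.23 and 9.36 against 8.84, 9.09 and 8.71, a difference of −0.32 ± 0.15 (adjusted p = 0.349). Its groups overlapped through CSN8ΔIEC replicate 2. Map1lc3a had 5.99, 6.57 and 6.41 against 5.88, 6.25 and 6.28, a difference of −0.19 ± 0.18, and replicate 1 was the lowest in both genotypes. Gabarapl1 lay the other way at 0.20 ± 0.14 (adjusted p = 0.538). Nbr1, a receptor that links ubiquitylated cargo to LC3, had 9.04, 9.22 and 9.19 against 8.74, 9.10 and 9.02, with a difference of −0.20 ± 0.13 (adjusted p = 0.520).

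**Figure D2:**
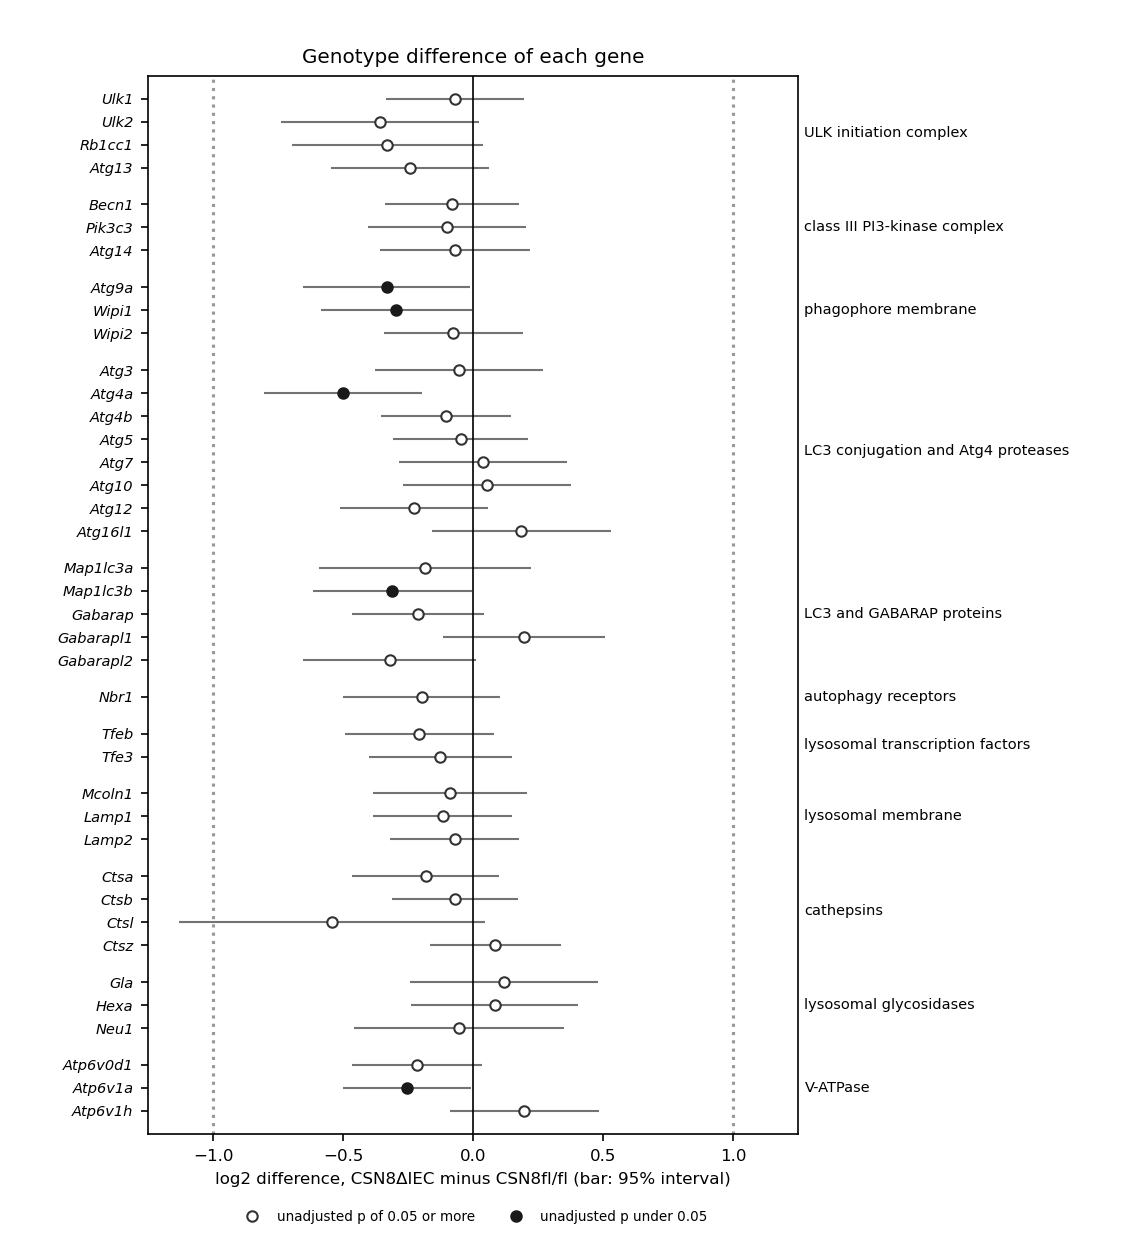
Log2 difference between CSN8ΔIEC and CSN8fl/fl for each of the 39 genes, with its 95% interval; filled points mark the 5 genes with an unadjusted p under 0.05 and dotted lines a 2-fold change. Only the interval of Ctsl crosses a dotted line, and no gene passed after adjustment over all genes.

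The transcription factors and membrane proteins of the lysosome differed little. Tfeb, which drives lysosomal genes when it enters the nucleus, had 8.23, 8.43 and 8.52 in CSN8fl/fl and 8.10, 8.29 and 8.17 in CSN8ΔIEC, a difference of −0.21 ± 0.13 (adjusted p = 0.479). CSN8fl/fl replicate 1 lay within the CSN8ΔIEC range. Its relative Tfe3 had 7.97, 8.0 and 7.83 against 7.74, 7.95 and 7.74, a difference of −0.13 ± 0.12. These signals are of mRNA and do not report the location or activity of either protein. Lamp1 and Lamp2, the main glycoproteins of the lysosomal membrane, had overlapping groups. Lamp1 had 11.29, 11.23 and 11.35 against 11.13, 11.31 and 11.08, a difference of −0.12 ± 0.12. Lamp2 had 11.92, 12.05 and 11.98 against 11.86, 11.95 and 11.93, a difference of −0.071 ± 0.11. The calcium channel Mcoln1 had 9.15, 9.05 and 9.42 against 9.08, 9.18 and 9.10, a difference of −0.088 ± 0.13, and the intervals of all 3 genes lay within 1.5-fold.

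Among the proteases, Ctsl had the largest difference and the largest spread of the list. Ctsl, the cysteine protease cathepsin L, was at 7.40, 7.67 and 7.75 in CSN8fl/fl and at 6.82, 7.73 and 6.64 in CSN8ΔIEC. CSN8ΔIEC replicate 2 lay within the CSN8fl/fl values, while the other CSN8ΔIEC arrays lay well below them. The difference was −0.54 ± 0.26 (adjusted p = 0.372), with a 95% interval from −1.13 to 0.046. Without CSN8ΔIEC replicate 2 it was −0.88 (adjusted p = 0.0658), the lowest adjusted p that any of the 39 genes reached under any alternative. The other cathepsins differed less. Ctsa, which protects other lysosomal enzymes, had 10.04, 10.29 and 10.29 against 9.91, 10.07 and 10.08, a difference of −0.18 ± 0.12. Ctsb, cathepsin B, had 12.30, 12.36 and 12.34 against 12.23, 12.30 and 12.26, a difference of −0.069 ± 0.11 in the narrowest interval of the list. Ctsz, cathepsin Z, differed by 0.085 ± 0.11.

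The glycosidases were the only role group whose median lay above 0, at 0.083, and their differences were small. Gla, the α-galactosidase, had 8.19, 8.43 and 7.85 in CSN8fl/fl and 8.34, 8.17 and 8.34 in CSN8ΔIEC, a difference of 0.12 ± 0.16. Hexa, a subunit of β-hexosaminidase, had 10.04, 9.97 and 9.59 against 9.99, 9.96 and 9.90, a difference of 0.083 ± 0.14. The sialidase Neu1 had 8.93, 8.69 and 9.34 against 8.88, 9.11 and 8.80, a difference of −0.054 ± 0.18. CSN8fl/fl replicate 3 was the lowest array for Gla and Hexa and the highest for Neu1. Without that array the differences of Gla and Hexa were −0.036 and −0.053 and that of Neu1 was 0.12.

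The 3 listed subunits of the V-ATPase, which pumps protons into the lysosome, each separated the groups, 2 downward and 1 upward. Of the 20 other subunits measured, 3 separated downward and 0 upward. Over all genes the shares were 11.7% and 10.7%. Atp6v1a, the catalytic subunit, had 8.95, 9.00 and 9.03 in CSN8fl/fl and 8.72, 8.70 and 8.79 in CSN8ΔIEC, with a difference of −0.26 ± 0.11 (adjusted p = 0.313). Atp6v0d1, a stalk subunit, had 9.63, 9.75 and 9.65 against 9.49, 9.40 and 9.49, a difference of −0.22 ± 0.11 (adjusted p = 0.404). Atp6v1h, a regulatory subunit, lay higher at 9.11, 8.88 and 8.89 against 8.84, 8.62 and 8.83, with a difference of 0.20 ± 0.13 (adjusted p = 0.50), and it was the single gene of the 39 whose CSN8ΔIEC values all exceeded the CSN8fl/fl values. None of the 3 listed subunits passed, and the largest of their differences was 1.19-fold.

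Genes with and without the longer TCACGTGA in their promoter had median differences close to each other. The 6 measured genes with TCACGTGA, namely Ctsa, Mcoln1, Atp6v0d1, Atp6v1a, Atg3 and Gla, had a median of −0.13 and 5 of them lay below 0, and the 25 measured genes with a promoter that lacked it had a median of −0.12 with 20 below 0. With the shorter CACGTG, the 11 genes that held it had a median of −0.088 and the 20 that did not −0.16. These counts are a description of the letters in 1 window. As 0 of the 39 listed genes were called, calls cannot set genes with and without the letters apart.

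The listed genes were also compared by labelled sex and age, which go together in these samples. Between libraries labelled male and female, 0 of the 39 genes differed at the adjusted threshold, beside 0.0154% of all genes, which were the 3 Y-linked genes named above. At an unadjusted p under 0.05 there were also 0 of the 39, beside 6.16% of all genes. Atg10, with −0.25 ± 0.13 (labelled male minus labelled female, adjusted p = 0.782), Hexa and Atg7 had the smallest p. The interaction of genotype with labelled sex and age was past the threshold for 0 of the 39, beside 0% of all genes. At an unadjusted p under 0.05 there was 1, Neu1, beside 10.1% of all genes. The interaction was estimated with 1 library labelled male in each genotype.

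Within the libraries labelled female the median genotype difference of the list was −0.13, and between those labelled male −0.16. Both differences lay below 0 in 24 of the 39 genes and both above 0 in 5. Neu1 had the smallest interaction p, with a genotype difference of 0.19 in libraries labelled female and −0.54 in those labelled male (adjusted p = 0.461). Atg3, the next, had 0.11 and −0.38, and Gla had −0.064 and 0.48. Ctsl, with −0.26 and −1.11, had the largest gap of the list, which was not past the threshold either. CSN8fl/fl replicate 3 is 1 of the 2 libraries behind each difference labelled male, and its part in these gaps was not tested.

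**Figure D3:**
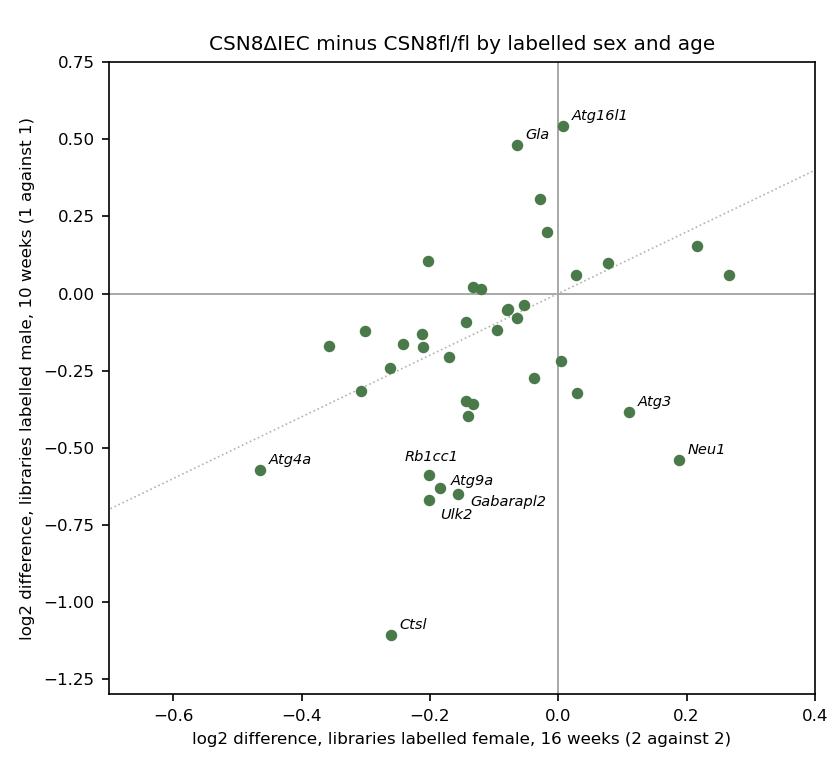
Genotype difference of each of the 39 genes between libraries labelled female (horizontal axis, 2 against 2) and between libraries labelled male (vertical axis, 1 against 1), in log2 units; the dotted line marks equal differences. Of the 39 genes, 24 lie below 0 on both axes, and Ctsl, Neu1, Gla and Atg16l1 lie far from the line.

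Beyond the 41 genes, 177 further genes of the same processes were measured, in 7 lists of machinery, receptors, hydrolases, membrane proteins, V-ATPase subunits, sorting proteins and regulators through mTORC1. Of these 177, 1 rose and 2 fell, where 0.374% and 0.702% of all genes did, and their median was −0.036. Lgmn, the lysosomal asparaginyl endopeptidase legumain, was at 9.09, 8.96 and 8.84 in CSN8fl/fl and at 9.60, 10.11 and 9.77 in CSN8ΔIEC, and rose 1.82-fold (difference 0.86 ± 0.15, adjusted p = 0.0387). Ctse, the endosomal aspartic protease cathepsin E, was at 6.25, 6.37 and 6.55 in CSN8fl/fl and at 5.76, 5.68 and 5.33 in CSN8ΔIEC, and fell 1.74-fold (difference −0.80 ± 0.15, adjusted p = 0.0465). Atp6v0e2, a small membrane subunit of the proton pump, was at 7.22, 7.57 and 7.44 against 6.40, 6.49 and 6.63, and fell 1.87-fold (difference −0.90 ± 0.13, adjusted p = 0.0194). The groups overlapped in none of the 3 genes.

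The calls were sensitive to the arrays and, for Ctse, to the processing. Lgmn and Ctse did not pass once any 1 library was left out (adjusted p = 0.0560 to 0.130 and 0.0573 to 0.156), and Atp6v0e2 passed without CSN8fl/fl replicate 1 or CSN8ΔIEC replicate 3 and not without the others (adjusted p up to 0.110). With all 6 arrays, Ctse also did not pass after a further quantile normalisation, with arrays shifted to 1 median or with all probe sets tested; it passed in 4 of 16 alternatives (adjusted p = 0.0434 to 0.198), and its signal was below the threshold for dim genes, 6.86. With 1 library left out the differences of the 3 genes kept their sign. They were 0.72 to 0.98 for Lgmn, −0.67 to −0.88 for Ctse and no smaller in size than −0.82 for Atp6v0e2. In libraries labelled female Ctse differed by −0.59.

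Among the other hydrolases, 40 were measured, 24 lay below 0 and the median was −0.086. Acp2, the lysosomal acid phosphatase, differed by −0.62 ± 0.12 (adjusted p = 0.0542). The 31 other membrane proteins had a median of −0.065, with 0 called. At an unadjusted p under 0.05, 1 was higher and 1 lower, where 6.95% and 8.01% of all genes were. Scarb2, the receptor that carries β-glucocerebrosidase, differed by 0.58 ± 0.14 (adjusted p = 0.113), the tetraspanin Cd63 by −0.36 ± 0.11 and the cystine transporter Ctns by −0.37 ± 0.16. Of the 20 other V-ATPase subunits 13 lay below 0, with a median of −0.12, and after Atp6v0e2 the smallest p-values were those of Atp6v1e1 (−0.42 ± 0.13, adjusted p = 0.185) and Atp6v0a1 (−0.26 ± 0.14).

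In the lists of autophagy proper, 0 of 25 other machinery genes and 0 of 14 other receptors were called, with medians of −0.030 and −0.055. At an unadjusted p under 0.05, 3 and 2 genes were lower and 0 higher. Over all genes 8.01% were lower and 6.95% higher. Atg16l2, Ulk3 and the SNARE Vamp8, which acts in fusion with the lysosome, differed by −0.34 ± 0.12, −0.39 ± 0.15 and −0.33 ± 0.13, and each separated the groups (adjusted p = 0.254, 0.263 and 0.274). Of the receptors, Tollip differed by −0.38 ± 0.15, the mitochondrial receptor Fundc1 by −0.27 ± 0.11 and Bnip3 by −0.29 ± 0.14. The groups of all 3 receptors were separate. The named machinery genes and these receptors were chosen for the smallest p-values of their lists. Of the 14 receptors, 3 separated downward and 1 upward, and of the 25 machinery genes 3 and 2. Over all genes 11.7% separated downward and 10.7% upward. Sqstm1, the receptor p62, was at 9.58, 9.73 and 9.68 in CSN8fl/fl and 9.74, 9.60 and 9.62 in CSN8ΔIEC (difference −0.013 ± 0.11, adjusted p = 0.968), overlapping throughout, and the sign of its difference turned under other scalings.

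The sorting and regulatory lists had medians of 0.011 and 0.023, with 0 of 16 and 0 of 31 called. At an unadjusted p under 0.05, 1 sorting gene was higher and 0 lower, and 1 regulator was higher and 5 lower. Over all genes 6.95% were higher and 8.01% lower. Nagpa, the uncovering enzyme of the mannose 6-phosphate tag, differed by 0.37 ± 0.13 (adjusted p = 0.216), the receptor of that tag M6pr by 0.28 ± 0.13 and the clathrin adaptor subunit Ap1m1 by −0.29 ± 0.13. Among the regulators, Sesn1, a sestrin that restrains mTORC1, differed by −0.50 ± 0.16 (adjusted p = 0.188), the phosphatase catalytic subunit Ppp3ca by −0.35 ± 0.13 and the AMPK subunit Prkaa2 by −0.37 ± 0.14. All 3 regulators, named for the smallest p-values of their list, separated the groups, and none passed. Of the 31 regulators, 5 separated downward and 3 upward, where 11.7% and 10.7% of all genes did.

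**Figure D4:**
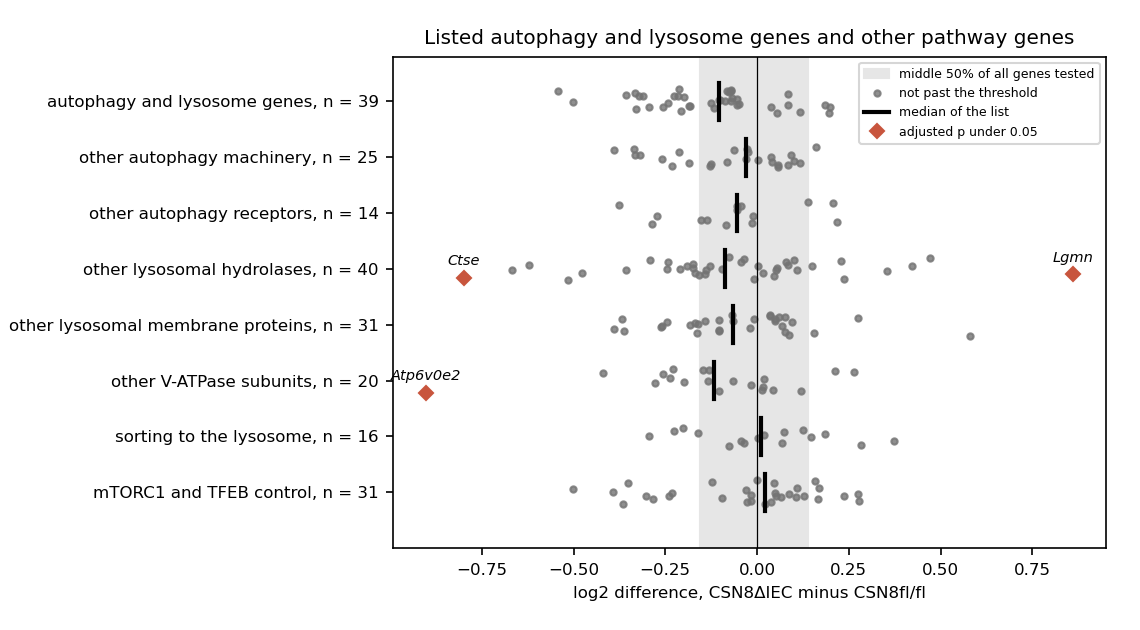
Log2 genotype differences of the 39 listed genes and of 177 further pathway genes in 7 lists, 1 point per gene, with the median of each list as a black bar and the middle 50% of all 19505 genes in grey. The 3 red points, Lgmn, Ctse and Atp6v0e2, are the genes past the adjusted threshold, and the list medians lie between −0.12 and 0.023.

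The crypt preparation holds several cell types, and in bulk RNA fewer cells of a type cannot be told apart from less RNA per cell. Markers of Paneth, tuft and goblet cells were lower in CSN8ΔIEC, with 6 of 12, 5 of 10 and 4 of 10 called and medians of −1.05, −1.69 and −0.52; for each of these lists the summed log2 signals of the genotypes did not overlap, at 16.14 to 16.17 against 14.75 to 15.52 for Paneth cells. These cells also express autophagy and lysosome genes, and their part in the small downward differences above was not tested. Of 14 markers of myeloid cells, which are rich in lysosomes, 0 were called by limma, 3 higher and 2 lower had an unadjusted p under 0.05 and the median was 0.066, with summed log2 signals of 12.46 to 13.07 in CSN8fl/fl and 11.80 to 12.50 in CSN8ΔIEC. Of 6 intestinal stem cell markers 0 were called, 3 higher had an unadjusted p under 0.05 and the median was 0.40, with summed log2 signals of 11.75 to 12.44 in CSN8fl/fl and 12.41 to 12.72 in CSN8ΔIEC. Of 11 enterocyte markers 0 were called, 3 lower had an unadjusted p under 0.05 and 9 lay below 0, with a median of −0.13. Of 9 T cell and 6 B cell markers 0 were called, 1 and 2 had an unadjusted p under 0.05, and the medians were −0.23 and −0.25. Of 9 stromal and 6 endothelial markers, 1 each was higher, with medians of 0.19 and −0.11. The part of these cell types in the differences of the listed genes was not tested either. Over all genes, 6.95% were higher and 8.01% lower at an unadjusted p under 0.05. A log2 array signal has no zero, so the absence of a marker could not be read from these values.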

How the data were processed

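The authors deposited log2 signals per probe set; per the submitters' processing notes these were made in Partek 6.6 by RMA, which corrects background, normalises by quantiles and summarises probes; the sources used here give no settings, filters or annotation build. Of 22206 probe sets, 19572 had 1 symbol in the platform table, 0 several and 2634 none. For 55 genes with several probe sets the one with the highest mean was used, which left 19505 genes. Genotypes were compared with limma 3.58.1 (lmFit, eBayes) in R 4.3.3, two-sided, with 8.85 residual degrees of freedom after moderation. Further models added labelled sex and age, and their interaction with genotype. The script was tested on simulated data.

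The 41 genes and the other lists were chosen with earlier results of these data known. The text gives all 39 measured genes, with array values at least for those with an unadjusted p under 0.05, the 2 largest differences of each role and the 3 highest and 3 lowest signals; the 3 smallest p-values are named for labelled sex and age and the interaction; of each further list it names the 3 smallest p-values, genes past the threshold and Sqstm1. Of 191 symbols in the further lists, 14 had no probe set here, some as second spellings. Promoters and their coordinates are from RefSeq, GRCm38.p6. Alternatives were normalisation, dim genes, probe set choice, variance model, array weights, block, labelled sex and age and each library left out.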

Additional observations from a re-analysis of the deposited data

How the results depend on the processing

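In each of the 17 alternatives, with limma throughout, 0 of the listed genes were called higher and 0 lower. The median over the genes stayed between −0.071, with arrays shifted to 1 median, and −0.14, without CSN8ΔIEC replicate 2. Of the 39 genes 29 to 32 lay below 0, and with dim genes left out 29 of the 37 listed genes then tested. The median of all genes moved between −0.016 and 0.021. Same-numbered samples were not taken as pairs, as their deviations from the group means correlated at 0.12, −0.024 and 0.038. The replicate block left 202 calls over all genes, and under it Lgmn and Ctse did not pass and Atp6v0e2 did; the same holds with labelled sex and age as a term. The 210 calls over all genes were 41 to 228 when 1 library was left out (41, 122 and 114 without CSN8ΔIEC replicates 1, 2 and 3, and 109 without CSN8fl/fl replicate 2), 97 in libraries labelled female, 318 without dim genes and 324 with a mean-variance trend. Listed genes with separated groups were 9 to 20 lower and 1 to 3 higher when 1 library was left out. In libraries labelled female they were 14 lower and 3 higher. Fewer arrays make separation more frequent, and the share over all genes was not counted at these settings. Whether these counts exceed that share is therefore not known.

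Of the 39 genes, 30 kept their sign in every alternative, and 9 with small differences did not. In libraries labelled female the differences were 0.029 for Mcoln1, −0.029 for Hexa, −0.064 for Gla, −0.018 for Atg10, 0.0036 for Atg14, 0.11 for Atg3 and 0.19 for Neu1, and with array weights 0.010 for Atg3 and 0.019 for Neu1. With 1 library left out, the ranges were −0.032 to 0.16 for Atg7, −0.16 to 0.0067 for Pik3c3, −0.17 to 0.019 for Mcoln1, −0.053 to 0.17 for Hexa, −0.036 to 0.25 for Gla, −0.067 to 0.16 for Atg10, −0.14 to 0.080 for Atg3 and −0.20 to 0.12 for Neu1. Sqstm1 turned to 0.015 in libraries labelled female, 0.00012 quantile normalised again, 0.0073 with array weights and 0.019 with arrays shifted to 1 median, and was −0.055 to 0.018 with 1 library left out. The cause was not tested. Signal over background could not be judged from RMA values.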
